A study of Arabidopsis thaliana with 12 samples.

Results

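Subtilases and serine carboxypeptidase-like proteins are encoded by a pair of large plant families of serine hydrolases, and 36 of their genes were followed here across a 2-by-2 treatment of Arabidopsis root protoplasts. The members were the probe sets that name a single gene whose symbol begins with SBT or SCPL and a number: 7 SBT genes and 29 SCPL genes, among 13350 genes named by single-gene probe sets. Each member had 1 probe set. The TAIR10.1 gene table holds 7 genes with an SBT symbol and 49 with an SCPL symbol, so every gene with an SBT symbol was measured, and the SCPL genes beyond the 29 were not analysed here. The rule goes by symbol, so a family below means only the members with such symbols. These families were chosen with earlier results of the same data known.

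Protoplasts are plant cells freed of their walls. Those used here came from roots of ecotype Columbia plants and were transformed with a construct labelled ABI3-GR. ABI3 is a transcription factor of seed maturation, and dexamethasone (DEX) lets the fusion protein enter the nucleus, while cycloheximide (CHX) blocks translation. The 4 groups, of 3 arrays each, received 10 µM DEX with 35 µM CHX, 35 µM CHX alone, 10 µM DEX alone, or neither (untreated), and cells of every group carried the construct. The labels give no promoter for it. They also leave unsaid whether replicates were prepared separately, and the p-values reflect the spread between these samples alone, which may be technical. Without arrays of untransformed cells here, an effect of DEX itself cannot be told apart from one of nuclear ABI3. Of 28 markers of root cell types and other organs, the annotation used here named only the root hair expansin gene EXPA7, so the tissue label could not be checked. ABI3 was not named by a single-gene probe set in that annotation either, so the construct could not be checked. In such bulk samples, fewer cells of a type and less RNA per cell cannot be told apart.

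Subtilases are mostly secreted endoproteases that mature or destroy other proteins in the cell wall, including pectin methylesterases and the precursors of peptide hormones, and several are known from root development and from immunity. Serine carboxypeptidases trim residues from the C-terminus of proteins, many of them in the vacuole. Some SCPL proteins have lost that activity and act as acyltransferases that move sinapoyl and related groups from glucose esters onto other metabolites.

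The deposited values are linear intensities, and their trimmed mean is the same on each of the 12 arrays. They were floored at 16 and taken to log2, and changes were tested with limma over 22746 probe sets, with Benjamini-Hochberg adjustment and a threshold of 0.05. The 2 families differed in how well they could be measured. The SBT genes had median intensities over the 12 arrays of 55.3 (SBT1.3) to 477.4 (SBT5.4), and 5 of the 7 never touched the floor. The SCPL genes ran from 17.2 (SCPL35) to 4192 (SCPL48). Of the 29, 24 lay below the middle of all probe sets in mean level, and 20 were at or under the floor on at least 1 array. By mean log2 value, the brightest SCPL genes were SCPL48 and SCPL49 (annotated as carboxypeptidase Y), followed by SCPL29 and SCPL50. By the same measure the brightest SBT genes were SBT5.4, SBT3.5, SBT4.12 and SBT3.12.

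CHX without DEX asks what blocking translation does by itself. CHX with DEX asks the same in cells given DEX to bring ABI3-GR into the nucleus. Of the 7 SBT genes, 3 rose in both comparisons and none fell: SBT3.3, SBT4.12 and SBT5.4. Among all probe sets, 10.9% were called higher without DEX and 10.6% with DEX, against 42.9% of these 7 genes in each. In either direction the shares of all probe sets were 26.9% and 31.0%. The 42.9% does not describe subtilases at large: of 3 measured under other symbols, ARA12 and TPP2 fell in both comparisons and S1P passed in neither. The arrays of the 3 genes did not overlap between the groups in either comparison, as for 16.2% of all probe sets without DEX and 13.2% with DEX in that direction.

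SBT5.4, whose overexpression is known to disturb shoot meristems, had the tightest rise. Its intensities were 879.8, 932.7 and 810.6 with DEX and CHX and 864.8, 669.2 and 718.8 with CHX alone, against 285.6, 249.1 and 172.4 with DEX alone and 274.3, 195.1 and 181.3 in untreated cells. Every array with CHX thus stood above every array without it. The rise was 3.79-fold with DEX (log2 change 1.92, SE 0.24; limma adjusted p = 4.36e-05) and 3.50-fold without it (log2 change 1.81, SE 0.24; limma adjusted p = 7.35e-05).

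SBT4.12 encodes one of the subtilases that release the abscission peptide IDA from its precursor. It read 323.7, 414.6 and 1437 with DEX and CHX and 571.9, 307.9 and 296.9 with CHX alone, against 74.5, 110.8 and 122.5 with DEX alone and 61.6, 52.8 and 71.9 in untreated cells. Again no array with CHX overlapped with one without, although replicate 3 of the cells with both treatments stood far above its group. The rise was 5.76-fold with DEX (log2 change 2.52, SE 0.51; limma adjusted p = 0.00181) and 6.07-fold without it (log2 change 2.60; limma adjusted p = 0.00149). Without that array the change with DEX was 1.87.

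SBT3.3 is known from immune priming. It had intensities of 208.0, 315.7 and 312.8 with DEX and CHX and of 140.0, 138.2 and 138.0 with CHX alone. The arrays with DEX alone had 79.3, 54.4 and 31.3, and those of untreated cells 6.5, 26.5 and 51.8, of which the first is under the floor. The rise was 5.34-fold with DEX (log2 change 2.42, SE 0.52; limma adjusted p = 0.00309) and 4.96-fold without it (log2 change 2.31; limma adjusted p = 0.00436). The fold without DEX depends on the floor: the log2 change was 1.12 with a floor of 64.

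**Figure D1:**
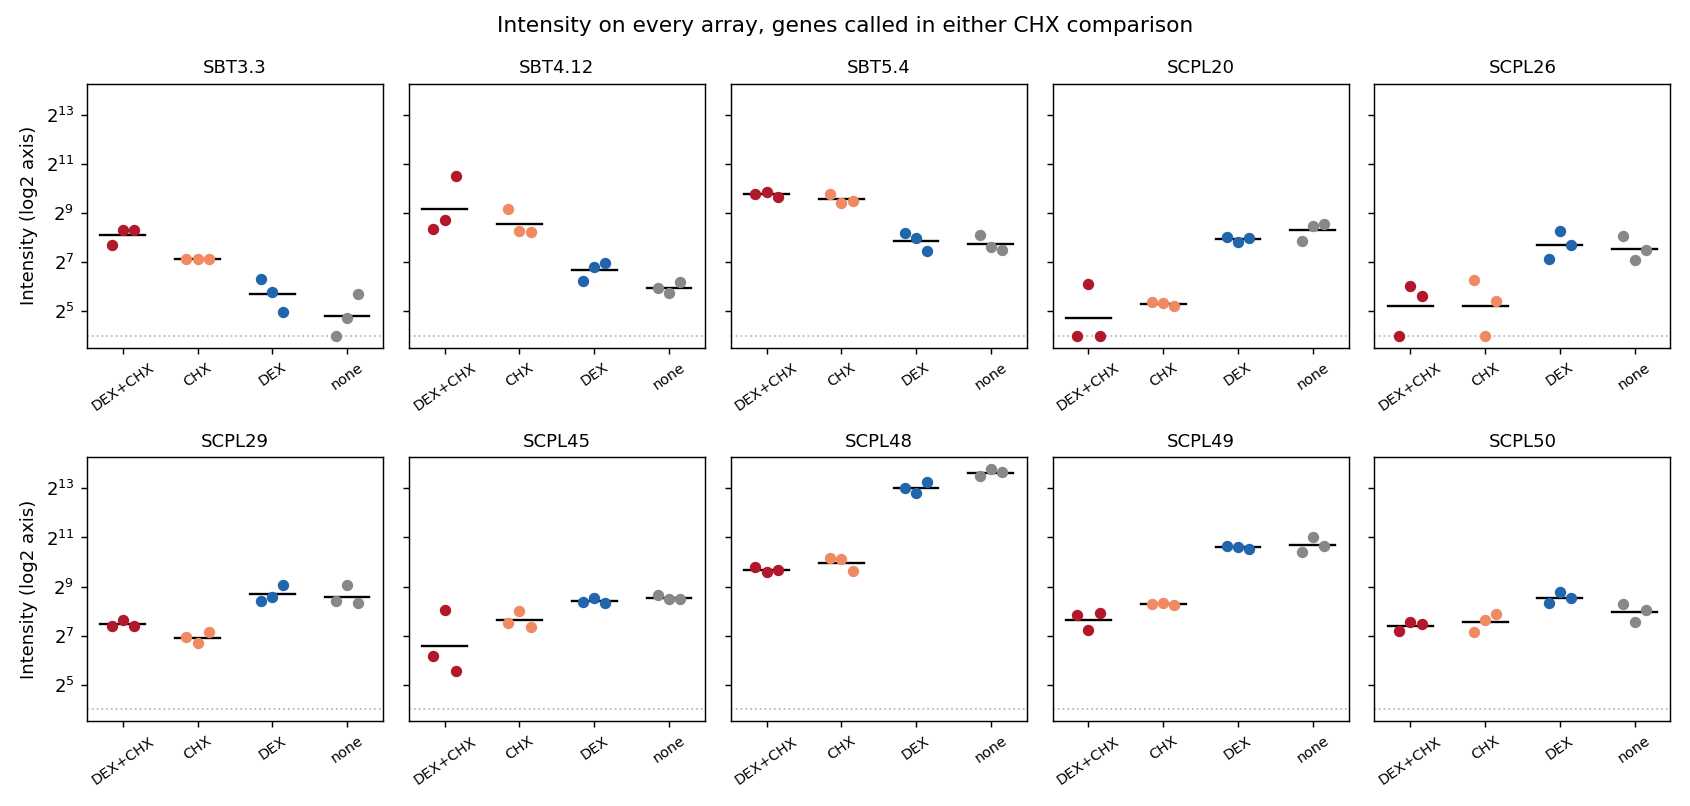
Intensity (log2 axis) on each of the 12 arrays for the 10 genes that passed the threshold in a CHX comparison, with groups from left to right DEX with CHX, CHX, DEX and none (untreated). Points are arrays, drawn at 16 where they lie under that floor (dotted line), and black bars are the means of the log2 values (n = 3). By these means the 3 SBT genes stand higher with CHX and the 7 SCPL genes lower, though the SCPL50 arrays overlap without DEX.

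The other 4 SBT genes did not pass. Without DEX, the fitted log2 changes were 0.65 for SBT4.13, another IDA-processing subtilase, -0.29 for SBT3.12, -0.30 for SBT1.3 and -0.86 for SBT3.5, which is known to process a pectin methylesterase in roots. With DEX they ran from -0.97 (SBT4.13) to -0.65 (SBT3.12), where the median of all probe sets was -0.46. SBT3.5 read 181.4, 383.3 and 104.7 with both treatments and 224.4, 183.7 and 169.4 with CHX alone, against 197.6, 437.5 and 536.8 with DEX alone and 413.7, 281.7 and 357.7 in untreated cells. Without DEX the SBT3.5 arrays did not overlap, as for 24.0% of all probe sets in that direction. The change missed the threshold (limma adjusted p = 0.22). With DEX the SBT1.3 arrays did not overlap either, as for 27.5% of all probe sets in that direction. Its log2 change of -0.91 did not pass (limma adjusted p = 0.313). The family median was 0.65 without DEX, beside -0.05 over all probe sets, and -0.65 with DEX, so the median does not describe the 3 genes that rose.

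The SCPL genes called under CHX all fell. Without DEX 5 of 29 were lower and none higher: SCPL48, SCPL20, SCPL49, SCPL26 and SCPL29. With DEX the same 5 were lower, together with SCPL45 and SCPL50. These shares are near those of the array at large: 17.2% of the family fell without DEX, beside 16.1% of all probe sets, and 24.1% with DEX, beside 20.4%. Arrays of 7 SCPL genes stood wholly lower with CHX in each comparison, as did 24.0% of all probe sets without DEX and 27.5% with DEX. The absence of rises is measured against 10.9% and 10.6% of all probe sets. Across all probe sets the split of calls with DEX, 2411 higher and 4634 lower, was 3252 and 2261 once arrays were centred on their medians. Without DEX, the probe sets called lower went from 3653 to 2745 with that centring. It left 5 SCPL genes lower in each comparison, so how near the shares lie depends on the scaling.

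SCPL48 belongs with SCPL49 to the carboxypeptidase Y-like group, and had the deepest fall and the highest level of the 36 genes. It had intensities of 879.8, 777.8 and 809.9 with DEX and CHX and 1158, 1103 and 798.2 with CHX alone, against 8366, 7226 and 9688 with DEX alone and 11552, 14001 and 12987 in untreated cells. The groups with and without CHX were far apart. The fall was 10.2-fold with DEX (log2 change -3.35, SE 0.17; limma adjusted p = 1.96e-08) and 12.7-fold without it (log2 change -3.67; limma adjusted p = 1.12e-08).

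SCPL49, the carboxypeptidase Y gene, read 227.0, 149.0 and 241.8 with DEX and CHX and 308.9, 317.7 and 304.1 with CHX alone. With DEX alone it read 1607, 1557 and 1492, and in untreated cells 1359, 2103 and 1599. It too had no overlap between arrays with and without CHX, and it fell 7.70-fold with DEX (log2 change -2.94, SE 0.22; limma adjusted p = 3.77e-07) and 5.35-fold without it (log2 change -2.42; limma adjusted p = 2.15e-06).

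SCPL20 stood at 3.7, 67.7 and 7.4 with DEX and CHX and at 40.8, 39.9 and 37.3 with CHX alone, against 254.9, 223.5 and 253.9 with DEX alone and 230.5, 352.1 and 369.3 in untreated cells. Of the arrays with both treatments 2 lay under the floor, so the 9.42-fold fall with DEX (limma adjusted p = 0.0005) depends on it. The fall without DEX, 7.91-fold (log2 change -2.98, SE 0.55; limma adjusted p = 0.000953), involves no array at the floor.

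SCPL29 had 168.8, 196.3 and 166.3 with DEX and CHX and 122.5, 102.9 and 142.0 with CHX alone, against 343.4, 383.5 and 533.0 with DEX alone and 336.5, 529.0 and 320.7 in untreated cells. It fell 3.17-fold without DEX (limma adjusted p = 0.000697) and 2.34-fold with DEX (limma adjusted p = 0.00613). The call with DEX was lost after quantile normalization and after centring on medians, as was that of SCPL50. That gene fell 2.21-fold with DEX (limma adjusted p = 0.0109). It read 146.2, 190.6 and 175.3 with both treatments, against 325.5, 441.1 and 366.7 with DEX alone. Without DEX its log2 change was -0.42 (limma adjusted p = 0.386), and its arrays overlapped. The difference between these effects did not pass (interaction -0.72, limma adjusted p = 0.668).

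SCPL26 read 1.7, 65.6 and 49.4 with DEX and CHX and 76.0, 7.9 and 42.6 with CHX alone, against 140.8, 303.4 and 203.8 with DEX alone and 268.9, 135.4 and 177.3 in untreated cells. It was the least secure of the 5 falls without DEX (log2 change -2.32, SE 0.67; limma adjusted p = 0.0203). That call was lost without replicate 1 or replicate 3 of the untreated cells, without replicate 2 of CHX alone, or with a pseudocount in place of the floor. Over all 20 alternatives, those that kept the call included, the limma adjusted p ran between 0.00531 and 0.0983. The fall with DEX (log2 change -2.46; limma adjusted p = 0.0136) was lost without replicate 1 of both treatments (log2 change -1.85) or without replicate 2 of DEX alone.

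SCPL45 passed only with DEX (log2 change -1.81, SE 0.50; limma adjusted p = 0.0138), at 71.8, 264.4 and 47.6 with both treatments against 326.7, 370.4 and 318.9 with DEX alone. Without DEX its change was -0.93 (limma adjusted p = 0.217), and the difference between these effects did not pass (interaction -0.88, SE 0.70; limma adjusted p = 0.745). Leaving out replicate 1 or replicate 3 of both treatments, or fitting only the 6 arrays compared, ended the call. Replicate 2 of both treatments stood nearer to the arrays without CHX than its fellows did.

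**Figure D2:**
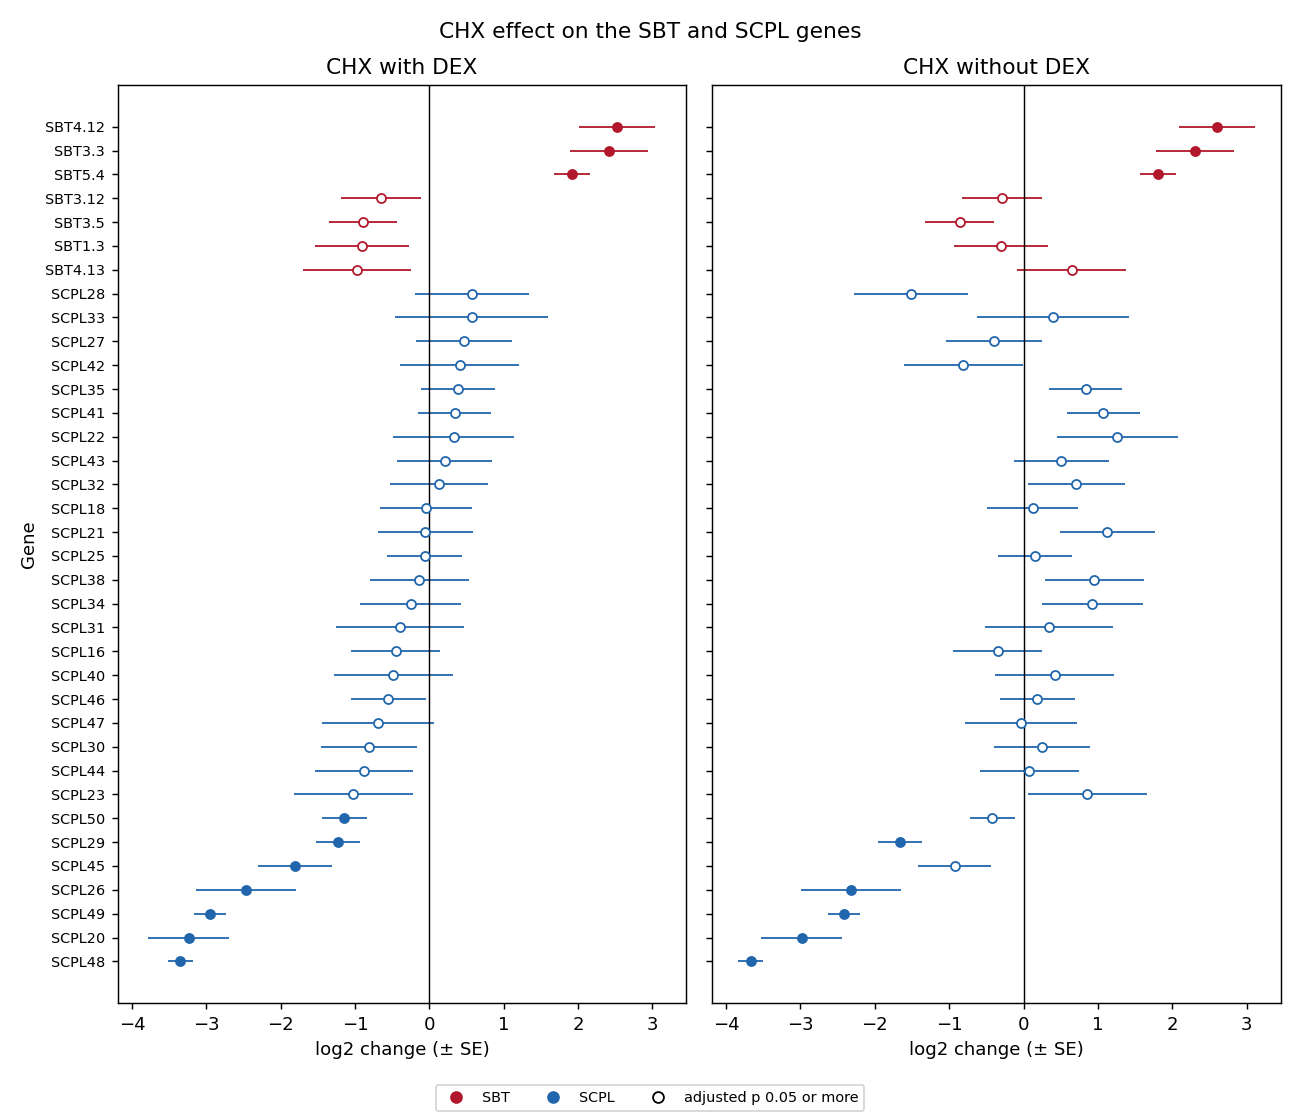
Fitted log2 change with its standard error for each of the 36 genes, SBT in red and SCPL in blue, for CHX in cells given DEX (left) and CHX in cells without DEX (right); filled points have a limma adjusted p under 0.05. The 3 SBT genes lie near 2 in both panels, and the called SCPL genes run down to -3.35 and -3.67.

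The remaining 22 SCPL genes that passed in neither comparison had log2 changes from -1.02 to 0.57 with DEX and, including SCPL45 and SCPL50, from -1.52 to 1.26 without it. Over the 29 genes, the sign of the CHX effect was negative in both DEX states for 9, positive in both for 6 and opposite for 14. At an unadjusted p under 0.05 only SCPL41 was higher without DEX (log2 change 1.07; limma adjusted p = 0.143). The family median was 0.16 without DEX and -0.40 with it, beside -0.05 and -0.46 over all probe sets. With arrays centred on their medians the family medians were 0.29 and 0.09, so no direction is drawn from them.

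Changes were also set out against level. The mean over the 12 arrays includes those with CHX, so a gene's place on that scale moves with its CHX change, and no count by level is drawn from it: SCPL20 and SCPL26 stood far higher without CHX than their means over all arrays, and SBT4.12 far lower. SCPL25 was never at the floor and passed in neither CHX comparison, at 128.6, 170.4 and 143.1 with both treatments and 138.9, 81.9 and 138.7 with CHX alone, against 152.1, 173.8 and 135.5 with DEX alone and 188.9, 45.3 and 133.2 in untreated cells. Its groups overlapped, with log2 changes of -0.06 with DEX and 0.16 without.

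**Figure D3:**
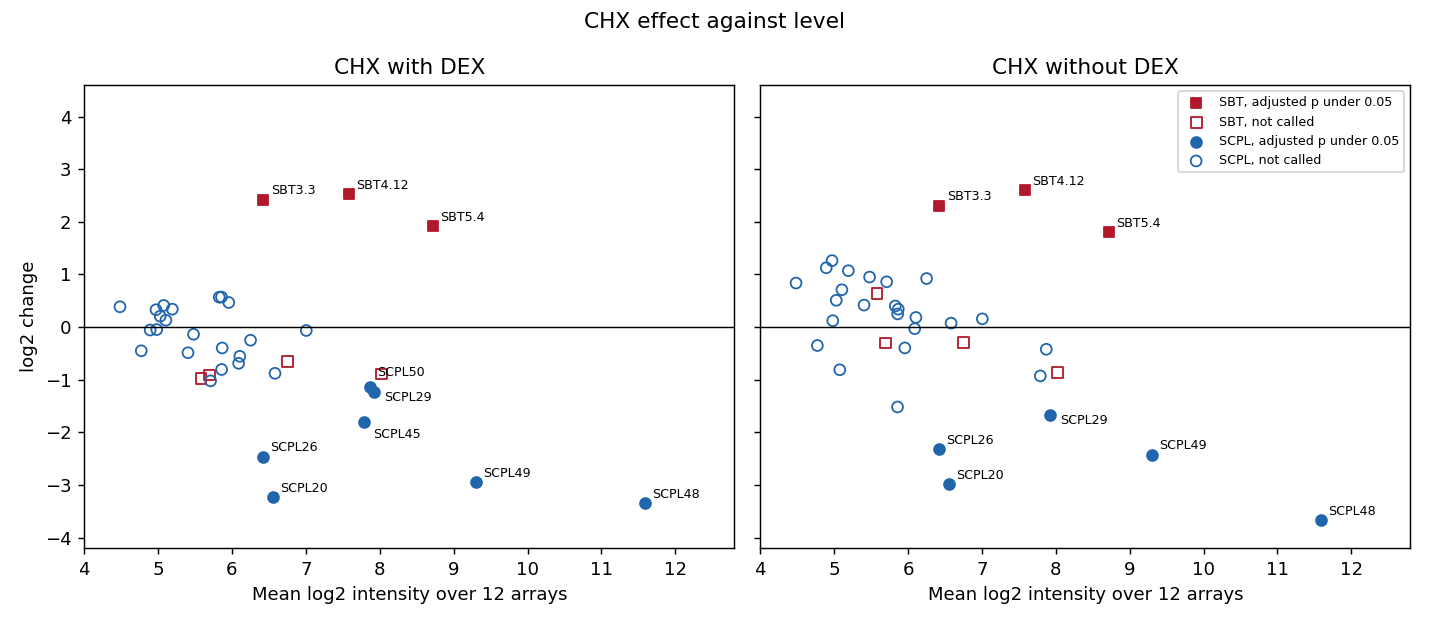
Fitted log2 change under CHX (vertical axis) against the mean log2 intensity over the 12 arrays (horizontal axis, arrays with CHX included) for the 36 genes, with SBT as red squares and SCPL as blue circles, filled where the limma adjusted p is under 0.05. The dim SCPL genes at the left scatter around 0, while SCPL48 and SCPL49 lie far below it and the 3 called SBT genes far above.

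Several members are close neighbours on a chromosome, and 5 such pairs have at most 3 protein-coding genes between them. Within-array differences of the log2 values are given for them as a description only. No test of them is relied on, since the calls were known when the pairs were set out. SBT3.3 minus SBT3.5, with 1 gene between them, averaged 0.02 ± 0.82 on arrays with CHX and -3.22 ± 1.17 on arrays without it (SD, n = 6 each, DEX states pooled). SBT4.12 minus SBT4.13, with 3 genes between them, averaged 3.36 ± 1.67 with CHX and 0.64 ± 1.01 without. In each of these SBT pairs the called gene thus gained on its uncalled neighbour, which largely restates the calls. Among the SCPL pairs, SCPL26 minus SCPL28 averaged -0.40 ± 1.78 with CHX and 1.52 ± 1.22 without, a shift of -1.92. SCPL41 minus SCPL42 averaged 0.57 ± 1.44 with CHX and -0.34 ± 1.08 without, a shift of 0.91. SCPL22 minus SCPL23 averaged -0.30 ± 1.99 with CHX and -1.18 ± 0.69 without, a shift of 0.88. The spreads are wide beside these shifts, so no divergence of the SCPL neighbours is drawn from them.

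DEX had no called effect on either family. Without CHX, 0 of 7 SBT and 0 of 29 SCPL genes passed in limma, where 0.0132% of all probe sets did, and 0 and 2 had an unadjusted p under 0.05. With CHX, 0 and 0 passed, where 0.273% of all probe sets did (0.255% higher and 0.0176% lower), and 0 and 1 had an unadjusted p under 0.05. At these background shares no call among 36 genes is what most lists of this size would give. Without CHX the changes ran from 0.05 (SBT3.5) to 0.87 (SBT3.3) among the SBT genes and from -1.41 (SCPL28) to 1.43 (SCPL40) among the SCPL genes.

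SCPL48 came closest without CHX, at 8366, 7226 and 9688 with DEX alone against 11552, 14001 and 12987 in untreated cells. The groups did not overlap, as for 4.69% of all probe sets in that direction, and the log2 change of -0.61 (SE 0.17; 95% interval -0.99 to -0.24) missed the threshold (limma adjusted p = 0.562). SCPL46 read 87.2, 149.8 and 103.9 with DEX alone, against 46.1, 34.2 and 73.3 in untreated cells, also without overlap (6.87% of all probe sets in that direction); the log2 change of 1.18 (SE 0.50) did not pass (limma adjusted p = 0.771).

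With CHX, the changes ran from -1.48 (SBT4.13) to 0.98 (SBT3.3) and from -1.02 (SCPL45) to 1.28 (SCPL42). SBT3.3 stood at 208.0 to 315.7 with both treatments, against 138.0 to 140.0 with CHX alone. These groups did not overlap, as for 4.26% of all probe sets in that direction, and the change was not past the threshold (SE 0.52; 95% interval -0.15 to 2.11; limma adjusted p = 0.693). SCPL49 read 149.0 to 241.8 with both treatments, against 304.1 to 317.7 with CHX alone, without overlap (7.68% of all probe sets in that direction) and with a log2 change of -0.62 that did not pass (SE 0.22; limma adjusted p = 0.49). SCPL45 passed for DEX with CHX once replicate 2 of both treatments was left out (log2 change -1.75; limma adjusted p = 0.0412). Of the well measured genes, SBT5.4 had a DEX effect of 0.11 without CHX (95% interval -0.41 to 0.64) and of 0.23 with it (95% interval -0.30 to 0.75), so a 2-fold DEX effect lies outside both intervals.

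**Figure D4:**
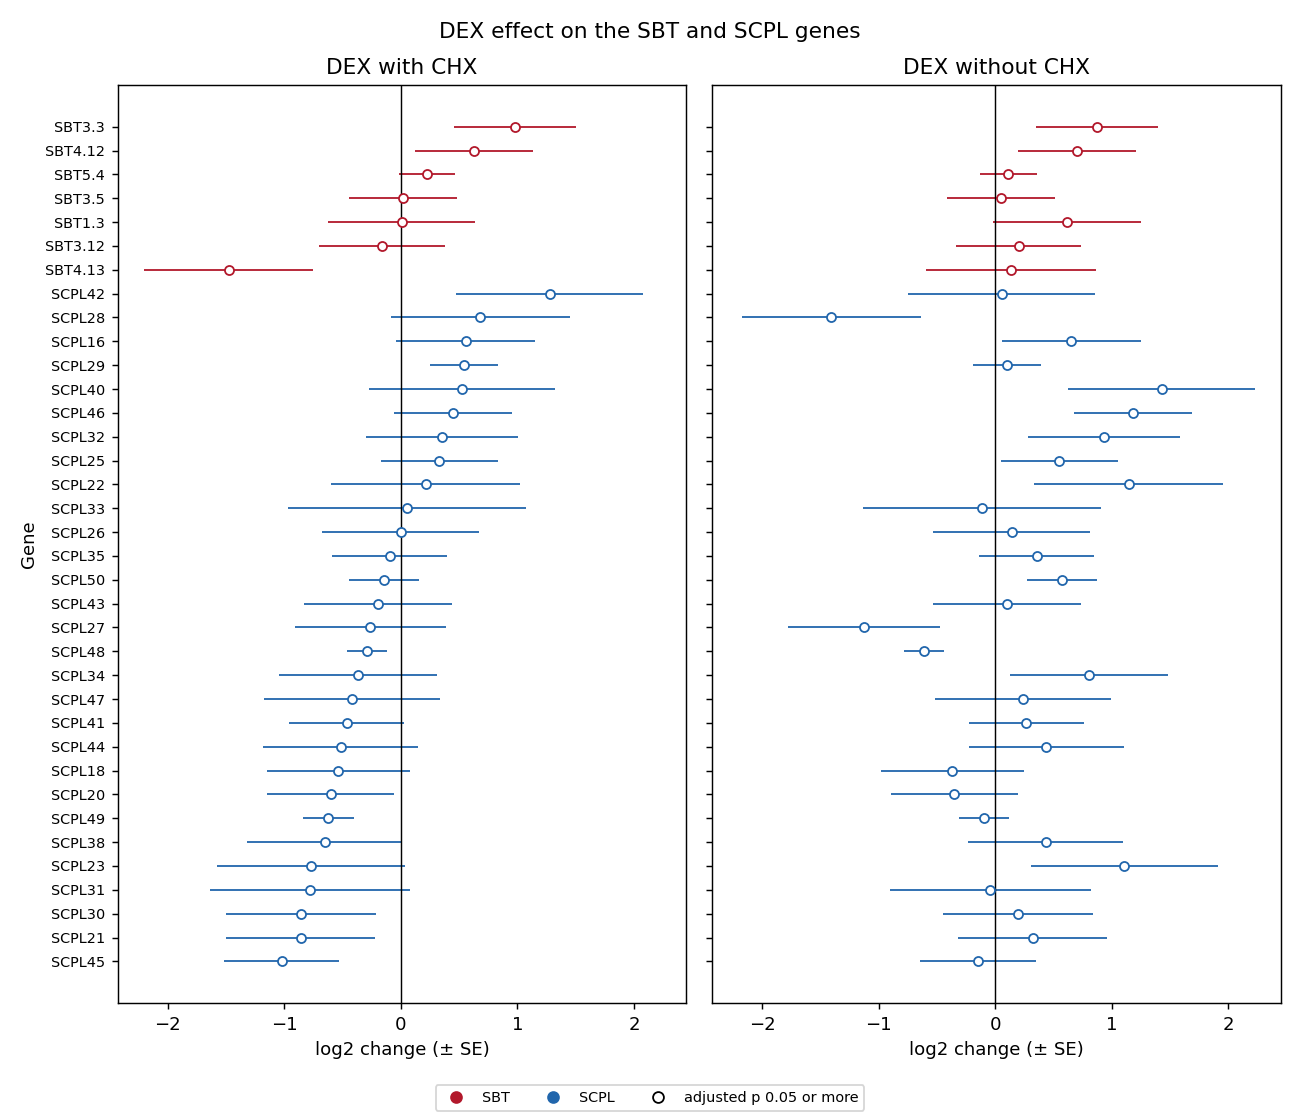
Fitted log2 change with its standard error for each of the 36 genes, SBT in red and SCPL in blue, for DEX in cells given CHX (left) and DEX in cells without CHX (right); every point is open, since no gene had a limma adjusted p under 0.05. The changes run from -1.48 to 1.28 in the left panel and from -1.41 to 1.43 in the right.

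The CHX effects with and without DEX were close for the called SBT genes, and the interaction, which tests their difference, passed for none of the 36 (0.0044% of all probe sets passed, and none of the 36 had an unadjusted p under 0.05). It was 0.11 for SBT5.4 (95% interval -0.63 to 0.85), -0.08 for SBT4.12 (-1.63 to 1.48) and 0.11 for SBT3.3 (-1.49 to 1.71). For SCPL48 it was 0.32 (95% interval -0.21 to 0.85) and for SCPL49 -0.52 (-1.19 to 0.14). The extremes were SBT4.13 at -1.62, SCPL23 at -1.88 and SCPL28 at 2.09, each with a standard error between 1.03 and 1.14. The SCPL median of -0.58, beside -0.22 over all probe sets, went to 0.11 after quantile normalization.

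Of 10 listed subtilases that carry other symbols 3 were measured, too few to describe them as a group: 2 fell without DEX and 2 with it, and 16.1% and 20.4% of all probe sets did so. ARA12, a subtilase of seed coat mucilage release, fell 3.62-fold under CHX without DEX (435.3, 297.2 and 320.4 with CHX alone, against 927.1, 1739 and 1215 in untreated cells; limma adjusted p = 0.000278). TPP2, the cytosolic tripeptidyl peptidase II, fell 2.33-fold (limma adjusted p = 0.000322), and S1P, the Golgi protease that activates membrane-bound bZIP factors, had a log2 change of -0.81 (limma adjusted p = 0.0626). ARA12 and TPP2 also fell with DEX. Serine carboxypeptidase genes under other symbols, SNG1 and BRS1, had no single-gene probe set in the annotation used here.

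Of other vacuolar and secreted proteases, 6 of 8 measured (of 15 listed) were lower without DEX, and 6 with it, with medians of -2.12 and -1.65, beside 16.1% and 20.4% of all probe sets called lower and medians of -0.05 and -0.46. DELTA-VPE and PASPA2 did not pass, with log2 changes of -1.27 and -0.81 without DEX and of 0.04 and -0.50 with it. CATHB3, a cathepsin B, fell 16.8-fold (1212, 1073 and 774.2 with CHX alone, against 16906, 16824 and 16873 in untreated cells; limma adjusted p = 4.56e-08). The aspartic proteases PASPA3 and PASPA1 fell 6.95-fold and 5.55-fold, and the vacuolar processing enzyme ALPHA-VPE fell 4.55-fold. Of 3 measured protease inhibitors (of 8 listed), the Kunitz-type KTI5 rose 3.44-fold (26849, 21667 and 21881 with CHX alone, against 7408, 6447 and 6559 in untreated cells; limma adjusted p = 6.49e-06), while SERPIN1 fell 2.79-fold and the cystatin CYS1 2.68-fold.

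Of subtilase substrates and partners, 4 of 15 were measured and 0 passed in any of the 5 comparisons (limma); the brightest were the S1P-activated factors BZIP28 and BZIP17, with CHX effects of 0.01 and 0.46 without DEX. Around the SCPL acyltransferases, 4 of 11 genes of sinapate ester synthesis were measured and 2 fell without DEX. Whether any SCPL member here is such an acyltransferase was not determined. UGT84A3, which makes glucose esters of hydroxycinnamates, fell 5.85-fold (limma adjusted p = 0.00179). It read 22.6, 16.4 and 20.5 with CHX alone, against 132.4, 96.8 and 119.0 in untreated cells. The readings with CHX alone lie close to the floor of 16, so the size of that fall is uncertain. REF1, which forms sinapate, fell 1.90-fold (limma adjusted p = 0.00105). With DEX 2 also fell: REF1, 2.16-fold (limma adjusted p = 0.000256), and UGT84A1, 3.23-fold (limma adjusted p = 0.0382). UGT84A1 had a log2 change of 0.67 without DEX (limma adjusted p = 0.482), and UGT84A3 one of -1.28 with DEX (limma adjusted p = 0.0759), neither past the threshold. Of all probe sets, 16.1% were lower without DEX and 20.4% with it. None of the genes on these lists passed for DEX with or without CHX in limma.

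Median intensities of the 12 arrays ran from 115.6 to 220.9, and 2.84% to 17.9% of probe sets lay at or under the floor, with the highest share on replicate 2 of the untreated cells. On replicate 1 of CHX alone the spiked-in hybridisation controls were dim, averaging 230.7 where each of the other 11 arrays had between 8733 and 15996. Leaving it out ended none of the 3 SBT rises. RNA integrity, read from the ubiquitin probe sets at the 3' and 5' ends, gave ratios of 5.08 to 8.01 with CHX and 5.97 to 7.58 without, ranges that overlap. The actin ratios were 4.79 to 16.6 with CHX, the highest on replicate 2 of CHX alone, and 5.37 to 12.01 without, and the GAPDH ratios 2.19 to 4.33 with CHX and 1.98 to 4.17 without. The part of RNA integrity in the results was not tested.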

How the data were processed

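The deposited values are linear microarray intensities, 1 per probe set and array. The software and scaling the authors used are not given in the sources used here; on every array the mean after trimming 2% at each end was 500. Values were floored at 16 and taken to log2. After 64 control probe sets were left out, 22746 were tested with limma 3.58.1 in R 4.3.3. The fit was 1 linear model over the 4 groups with empirical Bayes moderation and a variance trend. On simulated data for CHX without DEX, it called 12 of 100 probe sets given a log2 change of 1. It called 52 of 100 given a change of 2, and 4 of 22546 left unchanged. Many true changes of such size can thus go uncalled. Far fewer probe sets were changed there than were called under CHX here, so recovery may differ. Changes were given only to probe sets above a cut in mean level. Most of the SCPL genes, SBT1.3 and SBT4.13 lie below that cut, so recovery at their level was not tried. Genes came from the platform annotation, with symbols updated by Entrez ID (13436 probe sets matched) and printed in capitals: 13513 probe sets named 1 gene, 503 several and 8730 none. The number of arrays limits the precision. Tables and figures were made with Python 3.11.15. The members and gene lists were chosen with earlier results of these data known. Named genes were members past the threshold, the largest changes each way where none of a family passed, the 4 brightest members of each family and, per further list, up to 4 genes past the threshold under CHX without DEX or else the 2 brightest. SBT1.3, SBT4.13 under CHX, SCPL25, SCPL41, SCPL46, the neighbouring pairs, UGT84A1, DELTA-VPE, PASPA2 and S1P were named after their values had been seen. Listed symbols shared by an unrelated gene were set aside. Alternatives changed the scaling, floor, filter, variance trend, replicate block and arrays used.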

Additional observations from a re-analysis of the deposited data

How the results depend on the processing

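Over 20 alternatives, SBT3.3, SBT4.12, SBT5.4, SCPL20, SCPL48 and SCPL49 kept their calls in both CHX comparisons, and no called change reversed its sign. The SBT genes called higher numbered 3 in each comparison throughout. The SCPL genes called lower numbered 4 to 6 without DEX and 5 to 7 with DEX when single arrays were left out. With only the 6 arrays compared in the fit, 1 SBT gene was lower under CHX without DEX (SBT3.5). Leaving out single arrays gave 0 to 1 SBT genes lower under CHX with DEX (SBT3.5 without replicate 2 of both treatments) and 0 to 1 SCPL genes past the threshold for DEX with CHX (SCPL45 without that array). SCPL29 and SCPL50 lost their calls with DEX after quantile normalization or centring, with adjusted p-values up to 0.194 and 0.184. SCPL26 lost its call in 4 of the alternatives without DEX and in 2 with DEX, and SCPL45 its call with DEX in 3. The causes were not tested. With the replicate block, 3 SBT genes were higher and 5 and 7 SCPL genes lower, as without it. Deviations of same-numbered arrays from their group means had r from -0.44 to 0.29 over 18 pairs, 4 of them over 0.1. Arrays with different numbers were not compared, so these values cannot tell whether the numbers pair the samples. Quantile normalization gave 3214 higher and 3413 lower probe sets under CHX with DEX, against 2411 and 4634. Each member had 1 probe set, so another probe set per gene could not be tried. Low signal limits the dim SCPL genes.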
